A study of Mus musculus with 12 samples.

Results

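H3K4me3 was compared between mouse mammary tumour organoids treated with THC and organoids treated with SR2, the names the labels give. The comparison used the 2 THC and the 2 SR2 libraries of this mark, 4 of the 12 libraries of the study. Its members were all peaks of those 4 libraries on chromosomes 1 to 19 and X, joined into 1 region wherever they shared 1 bp or more. This gave 19584 regions, against 24594 when all 6 H3K4me3 libraries of the study are merged. The untreated Ctrl libraries took no part in the comparison, and the other libraries of the study hold H3K27me3.

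Both groups are spheroids grown from organoids of PyMT breast tumours, listed as genotype WT and collected 3 days after treatment. PyMT is the polyoma middle T oncogene, used to induce mammary tumours in mice. The labels do not give doses, the length of exposure, or what SR2 stands for. The series title speaks of transient modulation of CB2R, the cannabinoid receptor encoded by Cnr2. Each group has replicates 1 and 2, and the replicate number equals the batch number in the labels, so that pair 1 and pair 2 each hold 1 SR2 and 1 THC library of a batch. Nothing in the labels says whether the replicates came from separate tumours or cultures, so the spread between them may be technical. CUT&Tag tethers the transposase Tn5 to an antibody against the mark, and cut fragments from 500000 cells per library were sequenced.

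H3K4me3, trimethylated lysine 4 of histone H3, sits at the starts of active and poised genes. It is laid down by the SET1 and MLL methyltransferases, which are drawn to unmethylated CpG-rich promoters, and is removed by the KDM5 demethylases. Broad H3K4me3 domains are known from genes of cell identity, and narrow, weak peaks also occur at enhancers. In the mammary gland, luminal cells are known for keratins 8 and 18 and basal cells for keratins 5 and 14.

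The letters of 6 promoters show the kinds of gene start the comparison spans. Dll4, Samd5 and Mgst1 had a peak in both SR2 libraries and in neither THC library, Cpt1a and Krt8 had a peak in all 4 libraries, and Cnr2 had none near its start. Each sequence runs 5′ to 3′ on the strand of the gene, from 250 bases before the start to 50 after it, as given by RefSeq for GRCm38.p6, the assembly of mm10. Capitals mark the dinucleotide CG, which reads the same on both strands.
Dll4, chr2:119325534-119325833, plus strand: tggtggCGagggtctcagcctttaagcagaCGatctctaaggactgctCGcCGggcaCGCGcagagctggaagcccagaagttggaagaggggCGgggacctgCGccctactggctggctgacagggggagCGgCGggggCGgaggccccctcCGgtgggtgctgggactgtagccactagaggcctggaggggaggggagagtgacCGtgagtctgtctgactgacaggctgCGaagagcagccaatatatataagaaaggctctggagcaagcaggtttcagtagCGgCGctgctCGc
Samd5, chr10:9675159-9675458, minus strand: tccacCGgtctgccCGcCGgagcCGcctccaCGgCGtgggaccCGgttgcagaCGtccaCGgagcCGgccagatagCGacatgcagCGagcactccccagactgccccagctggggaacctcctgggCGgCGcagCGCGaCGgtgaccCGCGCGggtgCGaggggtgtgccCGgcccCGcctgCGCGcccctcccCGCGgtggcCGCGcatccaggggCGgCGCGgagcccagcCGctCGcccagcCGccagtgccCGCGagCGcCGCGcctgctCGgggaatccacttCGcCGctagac
Mgst1, chr6:138140277-138140576, plus strand: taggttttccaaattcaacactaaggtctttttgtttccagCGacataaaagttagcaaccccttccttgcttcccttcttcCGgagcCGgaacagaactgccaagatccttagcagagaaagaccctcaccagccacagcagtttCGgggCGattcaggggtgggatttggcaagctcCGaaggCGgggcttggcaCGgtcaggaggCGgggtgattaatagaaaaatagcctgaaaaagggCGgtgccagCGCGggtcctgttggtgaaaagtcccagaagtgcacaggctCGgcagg
Cpt1a, chr19:3323051-3323350, plus strand: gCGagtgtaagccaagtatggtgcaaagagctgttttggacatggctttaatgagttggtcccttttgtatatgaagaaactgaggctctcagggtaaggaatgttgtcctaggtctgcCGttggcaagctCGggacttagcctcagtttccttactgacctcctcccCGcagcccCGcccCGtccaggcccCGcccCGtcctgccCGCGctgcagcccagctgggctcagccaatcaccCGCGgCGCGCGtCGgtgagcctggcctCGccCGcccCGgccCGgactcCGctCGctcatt
Krt8, chr15:102004293-102004592, minus strand: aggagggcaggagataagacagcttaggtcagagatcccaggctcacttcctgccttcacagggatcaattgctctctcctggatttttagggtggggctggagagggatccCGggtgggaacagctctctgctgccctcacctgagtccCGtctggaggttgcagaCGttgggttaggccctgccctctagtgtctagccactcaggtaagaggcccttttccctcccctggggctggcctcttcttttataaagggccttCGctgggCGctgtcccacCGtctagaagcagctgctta
Cnr2, chr4:135894939-135895238, plus strand: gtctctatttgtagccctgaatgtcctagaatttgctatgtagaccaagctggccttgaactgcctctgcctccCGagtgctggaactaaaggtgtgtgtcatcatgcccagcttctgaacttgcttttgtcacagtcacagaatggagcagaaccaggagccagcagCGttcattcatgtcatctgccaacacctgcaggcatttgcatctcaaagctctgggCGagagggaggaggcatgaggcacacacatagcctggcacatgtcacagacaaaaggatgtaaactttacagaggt
The CG dinucleotide occurs 17 times in the Dll4 window, 43 times in that of Samd5 and 13 times in that of Mgst1. It occurs 22 times in the Cpt1a window, 6 times in that of Krt8 and 3 times in that of Cnr2. Of all 21044 promoter windows of this length, 95.5% hold at least 1 CG. The median was 24.0 per window for the 9405 starts in a region marked in all 4 libraries, with quartiles of 17.0 and 31.0. It was 18 for the 187 starts in a region marked only in the SR2 libraries, with quartiles of 10.0 and 28.0, and 4.00 for the 10382 starts with no region. The 1068 starts in regions with any other pattern of presence had a median of 17.0, with quartiles of 10.0 and 26.0, so the CG content of the SR2-only starts was close to that of other starts not marked in every library.

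THC libraries held fewer H3K4me3 peaks than the SR2 library of the same batch, and the peaks covered less of the genome. SR2 replicates 1 and 2 had 14812 and 15189 peaks, and THC replicates 1 and 2 had 11924 and 13227. The groups did not overlap. The THC to SR2 ratio of the means was 0.838, with 0.805 in pair 1 and 0.871 in pair 2. Covered length was 13.3 and 15.0 Mb after SR2 and 9.02 and 12.3 Mb after THC, a ratio of 0.755, with 0.676 and 0.825 in the pairs. The mean peak length was 901 and 985 bp after SR2 and 756 and 933 bp after THC. Here the groups overlapped, since THC replicate 2 lay above SR2 replicate 1, and the ratio was 0.896, with 0.840 in pair 1 and 0.948 in pair 2, so that the THC library was the lower of each pair. The exact two-sided permutation p was 0.333 for peak number, 0.333 for covered length and 0.667 for mean length (n = 2 per group), and 0.333 is the smallest p that 2 against 2 can give.

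THC replicate 1 had the lowest background and the lowest median summit pileup of the 4 libraries. Its background pileup, the number of fragments that the peak caller took as the genome-wide level, was 0.752, against 1.16 and 1.10 in SR2 replicates 1 and 2, and 1.52 in THC replicate 2. Its median summit pileup was 21, against 36, 54 and 44 in the same order. Peak lists hold no read totals, and the part of this background in the results below was not tested. Results are therefore given for each library, with the main counts also without THC replicate 1. Those counts rest on THC replicate 2 as the only THC library, which had the highest background of the 4.

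**Figure D1:**
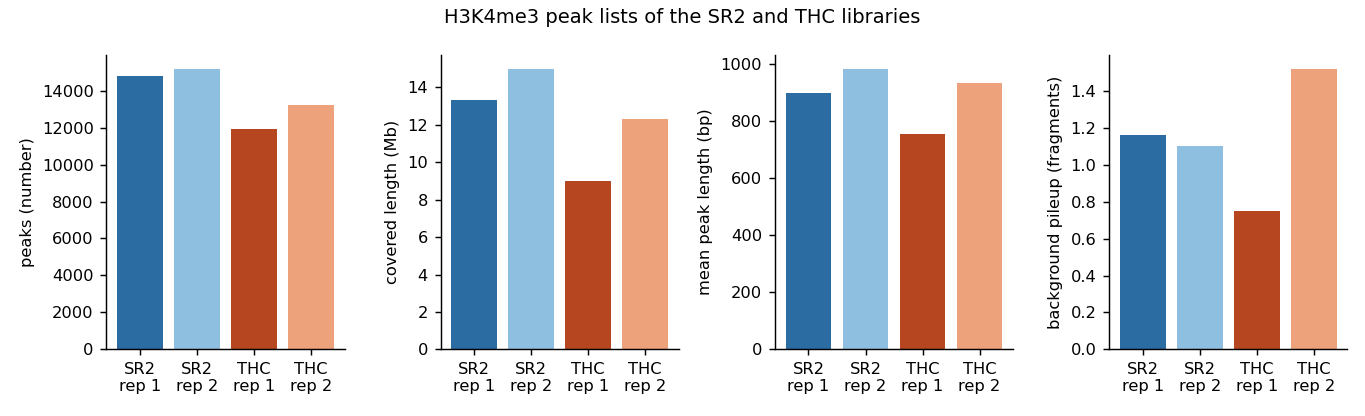
Peak number, covered length in Mb, mean peak length in bp and background pileup in fragments for each H3K4me3 library, 1 bar per library. Both THC bars lie below both SR2 bars for peak number and covered length, and THC replicate 1 has the lowest background, 0.752.

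Presence was one-sided. Of the 19584 regions, 10169 (51.9%) were marked in all 4 libraries. Both SR2 libraries marked 12181 regions and both THC libraries marked 10248. A peak was present in both SR2 libraries and absent from both THC libraries in 618 regions (3.16% of all regions, and 5.07% of those marked in both SR2 libraries), called SR2-only here. The reverse, THC-only, held for 14 regions (0.0715% of all, and 0.137% of those marked in both THC libraries). In these bulk samples, fewer marked cells and less of the mark per cell cannot be told apart.

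The same direction appeared in each batch. In pair 1, 10340 regions were shared, 4273 were in the SR2 library alone and 1153 in the THC library alone. In pair 2, 11913 were shared, 3194 were in the SR2 library alone and 1123 in the THC library alone. THC replicate 1 was the only library to lack a peak in 1262 regions, against 132 for THC replicate 2, 55 for SR2 replicate 1 and 10 for SR2 replicate 2. Without THC replicate 1, 750 regions were marked in both SR2 libraries and not in THC replicate 2, while 1009 were in THC replicate 2 and neither SR2 library. The count of THC-only regions thus rests on asking 2 libraries to share a peak, and 1036 and 995 regions were marked in THC replicate 1 or 2 alone, beside 2289 and 2396 in SR2 replicate 1 or 2 alone. Regions also went with the batch, and 427 regions were marked in both replicates 2 and in neither replicate 1, and 29 the other way round.

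The counts were also taken at equal list length. When each list was reduced to its 11924 strongest peaks, the length of the shortest list, SR2-only regions numbered 213 and THC-only regions 38. Both directions were then closer together, and SR2-only regions were still the more numerous. The cut takes the weakest peaks from the longer lists, and SR2-only regions reached at most the 41.9th and 45.4th percentile of the SR2 lists. The part of list length in these counts was not tested.

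**Figure D2:**
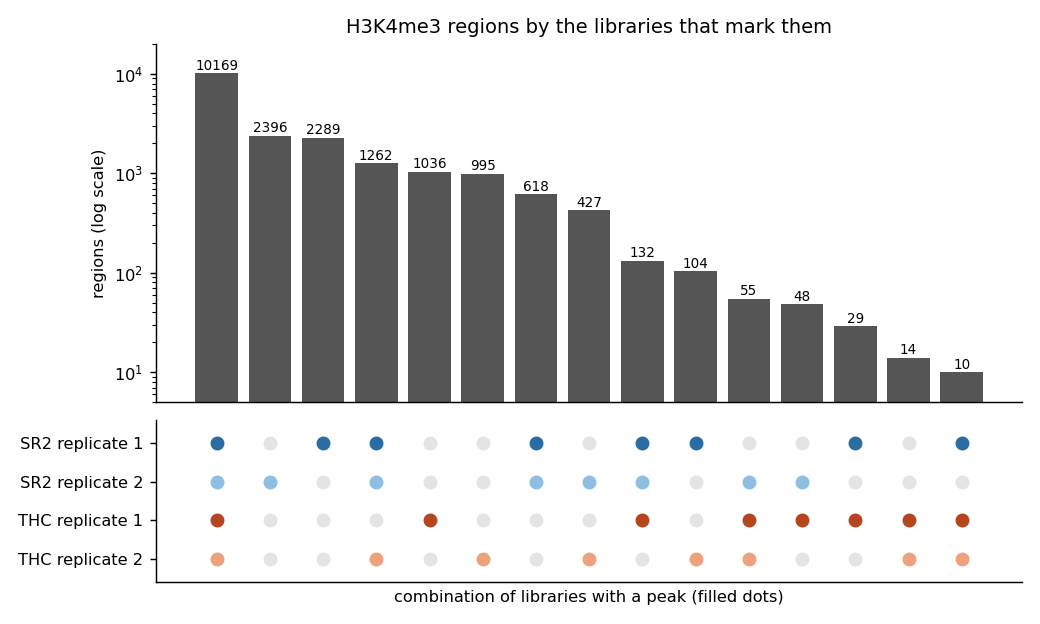
Number of H3K4me3 regions (log scale) for each combination of libraries that mark them, with filled dots below each bar for the libraries with a peak. Regions marked in all 4 libraries lead with 10169, SR2-only regions number 618 and THC-only regions 14.

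The SR2-only regions were narrow and weak in the libraries that held them. Their median covered length was 400 and 476 bp in SR2 replicates 1 and 2, against 1061 and 1152 bp for regions marked in all 4 libraries. Their median summit pileup was 12.5 and 15.0 fragments, against 49 and 76. None of the 618 stood above the middle of its SR2 list by strength, and the highest reached the 41.9th percentile in replicate 1 and the 45.4th in replicate 2. Of the 607 outside chromosome 18, for which no starts were used, 247 (40.7%) lay at a gene start, 269 (44.3%) within a gene and 91 (15.0%) between genes. Among regions marked in all 4 libraries these shares were 79.9%, 18.8% and 1.36%. Regions marked in a single library went further the same way, with 11.7% at starts, 39.7% between genes and median summit pileups of 8 and 10 fragments in the SR2 libraries.

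SR2-only regions were a larger share of the regions away from gene starts. At gene starts, 247 of the 8905 regions marked in both SR2 libraries (2.77%) were SR2-only. Within genes it was 269 of 2587 (10.4%), and between genes 91 of 370 (24.6%). Without THC replicate 1 these shares were 3.54%, 12.1% and 28.6%. THC-only regions were 4 at starts, 8 within genes and 2 between genes. A peak of the repressive mark H3K27me3 in any SR2 or THC library of that mark overlapped 13 SR2-only regions (2.10%). It overlapped 491 of the regions marked in all 4 H3K4me3 libraries (4.83%). It overlapped 3 of the 14 THC-only regions (21.4%), 3.53% of all regions and 1.34% of those marked in a single library. SR2-only regions were narrower than regions marked in all 4 libraries, and these shares were not matched for length.

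Of 12013 protein-coding genes with a region, 257 (2.14%) were SR2-only and 3 (0.0250%) were THC-only. The region lay within 1 kb of a start for 9746 of them, 206 SR2-only. For the other 2267, 51 SR2-only, starts were not used here and the region lay within 1 kb of either gene end, so it may lie at the far end of the gene. Among the genes named below this holds for Sox10, Adamts15, Galnt12, Abcg1, Lpl, Aldh1a3, Ramp2, Rflna, Dagla, Cdh1, Hes1, Kmt2e, Scarb1, Rdm1, Sdcbp, Mtmr4, Snrpb, Cxcl16, Cldn23, Dhodh, Kif13b, Tgfb3, Kdm6b and Col1a1. Without THC replicate 1, 325 genes (2.71%) had a peak in both SR2 libraries and none in THC replicate 2. The 12 SR2-only genes with the most covered bp were a mixed set, and each is listed at 0 bp in both THC libraries. Dll4, a Notch ligand known from sprouting vessels, had 1446 and 1142 bp in SR2 replicates 1 and 2 (mean 1294 ± 215 bp, SD, n = 2), with summit pileups of 18 and 20 fragments. Its region spans chr2:119325407-119326881 and holds the start printed above. Mgst1, a membrane glutathione transferase that detoxifies lipid peroxides, had 977 and 1161 bp. Its region holds both of its starts, and the second of these has 1 CG in its window against 13 in the one printed. The summit pileups of Mgst1 were 16 and 21, so that both genes lay below the medians of 49 and 76 in regions marked in all 4 libraries.

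Several of the other leading SR2-only genes encode enzymes and transporters. Aox1, an aldehyde oxidase, had 1064 and 686 bp, and Galnt12, which starts O-glycosylation of mucins, had 907 and 928 bp. Atp6v1c2, a subunit of the proton pump V-ATPase, had 989 and 1013 bp. Slc6a4, the serotonin transporter, had 672 and 1364 bp, and its 2 SR2 values lay further apart than those of Atp6v1c2. Slc35f1, of a family of nucleotide-sugar transporters, had 721 and 1061 bp.

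The remaining ones act at the cell surface, in the nucleus or in transport along microtubules. Adamts15, a secreted metalloproteinase, had 1145 and 920 bp, and Ccrl2, a receptor that binds chemerin, had 766 and 1306 bp. Sox10, a transcription factor of the neural crest that also marks mammary progenitor and basal cells, had 746 and 995 bp. It had the highest summit pileups of the 12, at 34 and 28 fragments. Samd5, which has a SAM domain, had 969 and 818 bp. Dynlt1c, a dynein light chain, had 605 and 1125 bp, and since near-identical copies of it lie close by, its reads may be shared between them.

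The 3 THC-only genes had narrow peaks. Eif4a3l1, a retrogene copy of the splicing helicase gene Eif4a3 whose reads may be shared with its parent, had 442 and 485 bp in THC replicates 1 and 2 and its region also overlapped an H3K27me3 peak. Rflna, a refilin that binds filamin, had 299 and 473 bp. Slc6a20a, an imino acid transporter, had 267 and 444 bp. None of the 3 reached the covered length of the 12 leading SR2-only genes. Their summit pileups ran from 8 to 16 fragments.

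When lists were cut to equal length, 7 of the 24 SR2-only genes named here stayed SR2-only: Abcg1, Abcg2, Adamts15, Dll4, Slc35f1, Slc6a4 and Sox10. When weak peaks, with a −log10 q below 5, were left out, 11 of the 24 stayed, among them Dll4, Sox10, Adamts15 and Slc35f1. When at least 500 bp had to be covered, 13 of the 24 stayed, and Abcg1 was among those lost. When peaks up to 500 bp apart were merged, 22 stayed, and Sox10 and Mgst1 were lost. Dll4, Adamts15 and Slc35f1 stayed SR2-only in these 4 settings.

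Endocannabinoid genes came next, since the series title names a cannabinoid receptor. Lipid ligands of these receptors are made by the diacylglycerol lipases Dagla and Daglb and by Napepld, and are broken down by Mgll and Faah. Cnr2 and Gpr55, a related receptor, had no region within 1 kb of a start in any of the 4 libraries. Cnr1, the cannabinoid receptor best known from neurons, had 1026 and 858 bp in SR2 replicates 1 and 2, 0 bp in THC replicate 1 and 943 bp in THC replicate 2. Mgll, which degrades 2-arachidonoylglycerol, was the SR2-only gene of the list, with 683 and 481 bp after SR2 and 0 bp in both THC libraries. Mgll was lost from the SR2-only set at equal list length.

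The enzymes were mostly marked in THC replicate 2. Faah had 488, 514, 0 and 497 bp in SR2 replicates 1 and 2 and THC replicates 1 and 2, and Dagla had 350, 465, 0 and 276 bp. Napepld was marked in all 4, at 894, 843, 682 and 987 bp, and its groups overlapped. Of the 22 genes of the list, 16 had a region, 8 of these were marked in all 4 libraries and 7 (43.8%) lacked a peak only in THC replicate 1. Over all genes with a region 84.6% were marked in all 4 and 5.94% lacked a peak only in THC replicate 1. The library that lacked these peaks is the one with the lowest background.

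Among the keratins of luminal and basal cells, 3 of 4 lacked a peak only in THC replicate 1. Krt8 had 1547, 1587, 1489 and 1490 bp and was marked in all 4 libraries. Its partner Krt18 had 1417, 857, 0 and 854 bp, and THC replicate 2 differed from SR2 replicate 2 by 3 bp. Krt5 had 590, 1381, 0 and 1040 bp and Krt14 had 1572, 2300, 0 and 1245 bp in the same order. In THC replicate 2, Krt5 lay between its SR2 values and the other 3 lay below both of theirs.

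Other luminal genes did not share 1 pattern. Gata3, a luminal transcription factor, had 710, 705, 460 and 540 bp. Esr1, the oestrogen receptor, was marked only in SR2 replicate 2, with 414 bp. Prlr, the prolactin receptor, was SR2-only with 321 and 501 bp, and so was Aldh1a3, a retinaldehyde dehydrogenase of luminal progenitors, with 283 and 1232 bp. Of 19 hormone-sensing luminal genes with a region, 8 (42.1%) were marked in all 4 libraries and 1 (5.26%) was SR2-only. A further 5 (26.3%) lacked a peak only in THC replicate 1. Of 13 basal genes with a region, 7 (53.8%) were marked in all 4 and 0 were SR2-only, 4 (30.8%) lacking a peak only in THC replicate 1. Over all genes with a region, 84.6% were marked in all 4, 2.14% were SR2-only and 5.94% lacked a peak only in THC replicate 1. Cdh1, the epithelial cadherin, had 1191, 1500, 1277 and 1197 bp, and 23 of 25 junction genes with a region (92.0%) were marked in all 4 libraries.

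Genes of epithelial-mesenchymal transition and of the Wnt pathway held 2 SR2-only members each, 9.52% and 6.25% of those with a region. Over all genes with a region it was 2.14%. Snai1 and Twist2 encode transcription factors that repress epithelial genes, and had 417 and 276 bp and 305 and 590 bp in the SR2 libraries. Wnt3a and Wnt7a encode secreted Wnt ligands, and had 397 and 1109 bp and 389 and 760 bp. None of these 4 stayed SR2-only at equal list length. Of 21 genes of the first list with a region, 10 (47.6%) were marked in all 4 libraries and 5 (23.8%) lacked a peak only in THC replicate 1. Of 32 Wnt genes these were 25 (78.1%) and 4 (12.5%), beside 84.6% and 5.94% of all genes with a region. Tgfb3, a TGF-beta ligand, was listed at 0 bp in THC replicate 1 and narrow in THC replicate 2, with 2120, 1740, 0 and 616 bp (adjusted p = 0.746, limma over all regions).

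In the Notch pathway, ligands on a neighbouring cell cleave and free the receptor's intracellular part, which acts with Rbpj on targets such as Hes1. Dll4 was the SR2-only gene of 24 Notch genes with a region (4.17%), and 22 (91.7%) were marked in all 4 libraries. These shares were 2.14% and 84.6% over all genes with a region. Jag1, another ligand, had 2950, 3876, 1617 and 2316 bp, with both THC values below both SR2 values. The ligand Dll1 had 2347, 2373, 2042 and 2139 bp, the receptor Notch1 2254, 2328, 1436 and 2281 bp, and Hes1 1466, 1026, 988 and 1182 bp. For Notch1 and Hes1 the groups overlapped.

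Lipid genes included 2 SR2-only members among 31 with a region (6.45%) in the list of fatty acid use and storage, beside 2.14% of all genes. Thrsp, a regulator of fatty acid synthesis, had 581 and 458 bp, and Lpl, the lipoprotein lipase, had 520 and 667 bp. Both are also on the list of adipocyte markers. Abcg1, which exports cholesterol, was the SR2-only gene of 29 cholesterol genes with a region (3.45%), with 607 and 460 bp. Mlxipl, a glucose-sensing regulator of lipid synthesis, had 1198, 1236, 0 and 403 bp. Abcg2, a drug efflux pump known from stem-like cells, was SR2-only with 386 and 534 bp.

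Over the 20 gene lists and 5 marker lists, 503 genes had a region, 14 (2.78%) were SR2-only and 0 were THC-only, beside 2.14% and 0.0250% of all genes. Ribosomal protein genes (34 of 34) and genes of hypoxia and glycolysis (26 of 26) were marked in all 4 libraries. So were 32 of 33 cell cycle genes and 30 of 31 writers and erasers of histone methylation, beside 84.6% of all genes with a region. The other SR2-only list gene was Ramp2, a partner protein of the adrenomedullin receptor known from endothelium, with 412 and 448 bp.

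All 20 epithelial markers had a region, and 20, 20, 16 and 20 were marked in SR2 replicates 1 and 2 and THC replicates 1 and 2, so the labelled tissue bore its marks. Markers of other cell types were mostly unmarked: a region was found for 3 of 15 fibroblast, 3 of 14 endothelial, 4 of 16 blood and 5 of 10 adipocyte markers. Pdgfrb, Pecam1, Ptprc and Adipoq, which define these types, had none. A marker of each list was marked in all 4 libraries: the collagen gene Col1a1 (901, 1142, 292 and 360 bp), the VEGF receptor gene Flt1 (919, 1335, 839 and 1378 bp), the leukocyte plastin gene Lcp1 and the adipogenic factor gene Cebpa. The adipocyte markers with a region also included Pparg, Lpl and Thrsp. The summed covered length of the adipocyte markers was 4560 and 5174 bp after SR2 and 1334 and 3205 bp after THC. That of the fibroblast markers was 1742 and 3003 bp after SR2 and 606 and 360 bp after THC. The endothelial markers had 1890, 1783, 839 and 1378 bp, and the blood markers 1486, 1758, 253 and 1287 bp, so that all 4 sums were lower in both THC libraries, as was the epithelial sum (30967, 32491, 16591 and 28381 bp). Per Mb that each library covered, the epithelial sums overlapped between the groups, at 2321, 2172, 1840 and 2299 bp, and the other 4 were still lower in both THC libraries. On that scale the adipocyte markers had 342, 346, 148 and 260 bp and the fibroblast markers 131, 201, 67.2 and 29.2 bp. These sums rest on few regions and include the SR2-only genes Lpl, Thrsp and Ramp2, which by definition have no peak in either THC library. Flt1 made up the whole endothelial sum after THC, and in THC replicate 2 it lay above both SR2 libraries. Cebpa made up 1334 and 2928 bp of the adipocyte sums after THC. The part of these cell types in the SR2-only counts was not tested.

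Regions that both treatments marked were mostly narrower in the THC library of each pair. Among the 10169 regions marked in all 4 libraries, covered length was smaller in the THC library in 9214 (90.6%) of pair 1 and in 8130 (79.9%) of pair 2. The median THC to SR2 ratio was 0.776 in pair 1 and 0.904 in pair 2. The median covered length was 1061 and 1152 bp after SR2 and 801 and 1024 bp after THC. In 5109 regions (50.2%) both THC libraries covered less than both SR2 libraries, and in 86 (0.846%) both covered more. The shift was thus shared across most regions, in both batches, and larger in the pair that holds THC replicate 1. Replicates of the same treatment also differed, by medians of 1061 against 1152 bp after SR2 and 801 against 1024 bp after THC. By this median, THC replicate 2 lay closer to SR2 replicate 1 than to THC replicate 1. The size of the shift was not tested against that spread.

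**Figure D3:**
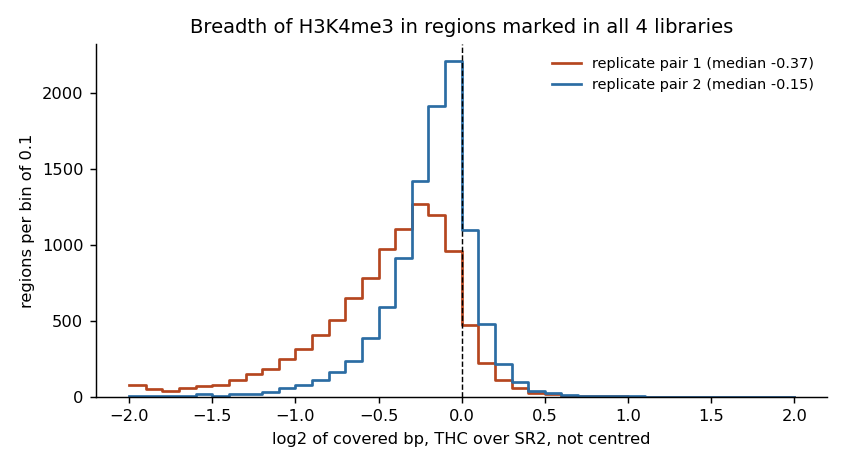
Distribution over the 10169 regions marked in all 4 libraries of the log2 ratio of covered bp, THC over SR2, for replicate pair 1 and pair 2, with values beyond the axis placed in its outer bins and a dashed line at equal length. Both distributions lie mostly below 0, with medians of -0.37 and -0.15.

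The ratio was lowest in the narrowest regions. The quartiles were cut on a mean covered length that includes the THC libraries. A region narrow after THC therefore falls more readily into a narrow quartile, and the gradient is not independent of the cut. In the quartile of smallest breadth the median ratio was 0.709 in pair 1 and 0.844 in pair 2, and in the quartile of largest breadth 0.816 and 0.938. In bp, the median difference ran from -190 in the narrowest quartile to -300 in the broadest in pair 1, and from -119 to -105 in pair 2. The difference lay at both edges. Around the 5128 regions with a single gene start, the median peak reached 282 and 319 bp upstream of the start after SR2 and 186 and 274 bp after THC. Downstream, within the transcribed part where the mark extends further, it reached 707 and 758 bp after SR2 and 559 and 672 bp after THC. The median change in pair 1 was -71.5 bp upstream and -117 bp downstream, and in pair 2 -31.0 and -55.0 bp.

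**Figure D4:**
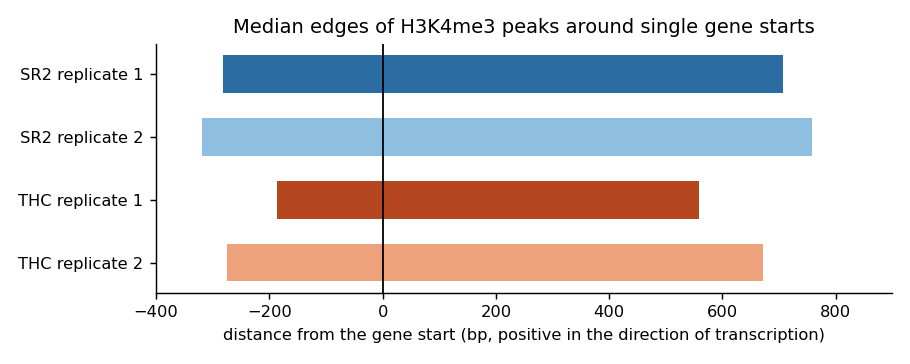
Median upstream and downstream edge of the H3K4me3 peak, in bp from the gene start, over 5128 regions with a single start marked in all 4 libraries, 1 bar per library. Both THC bars end nearer the start than both SR2 bars on either side.

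The 5 named genes with the broadest regions encode regulators. Mxi1, which competes with MYC for MAX, had 3464, 3958, 2654 and 3289 bp in SR2 replicates 1 and 2 and THC replicates 1 and 2. Tob2, an antiproliferative protein, had 3602, 3725, 2493 and 3711 bp, and Kmt2e, a SET-domain protein of the MLL family, had 3250, 3420, 2683 and 3223 bp. The ephrin Efna5 had 3689, 3605, 2042 and 3557 bp, and the MAP kinase phosphatase Dusp7 had 3339, 3832, 1418 and 3968 bp. THC replicate 1 was the lowest library in all 5, while THC replicate 2 lay below both SR2 libraries for Mxi1, Kmt2e and Efna5, between them for Tob2 and above them for Dusp7.

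To ask which regions changed breadth beyond this shared shift, log2(covered bp + 200) was shifted in each library by its median in the regions that all 4 libraries mark, and tested with limma in the 12868 regions marked in at least 2 libraries. No region passed an adjusted p of 0.05, either narrower (0%) or wider, and the smallest adjusted p was 0.746. At an unadjusted p of 0.05, 720 regions (5.60%) were narrower after THC and 130 (1.01%) wider. After centring, 2783 regions (21.6%) were narrower in both THC libraries than in both SR2 libraries and 2333 (18.1%) were wider in both. The tested regions include the 618 SR2-only and 14 THC-only regions, entered at 0 bp where no peak was called. Both pairs of counts therefore also hold differences of presence, and do not give narrowing of shared regions alone. Without centring the median log2 difference over the 12868 regions was -0.26, against -0.02 with centring. The unadjusted counts then became 1220 narrower and 15 wider, and with quantile normalization they were 412 and 242. Without THC replicate 1 the unadjusted counts were 899 and 202. Without THC replicate 2, leaving the library of lowest background as the only THC library, the adjusted test called 1134 regions narrower and 37 wider. The values below are therefore differences relative to the centred median, on the log2(bp + 200) scale, and none passed the adjusted test with all 4 libraries.

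Genes with the smallest unadjusted p among those narrower after THC had at least 0.68 less on that scale. Cpt1a, which admits long-chain fatty acids to mitochondria, had 1273 and 1601 bp after SR2 and 455 and 581 bp after THC. Its log2 difference was -0.95 ± 0.14 (SE; limma adjusted p = 0.746). Scarb1, the HDL receptor, had 1897 and 1941 bp after SR2 and 780 and 970 bp after THC, a difference of -0.75 ± 0.09. In both genes the groups were far apart in bp, and the pair ratios of Cpt1a were 0.357 and 0.363.

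St6gal1, a sialyltransferase of secreted and surface glycans, had 1847 and 1958 bp after SR2 and 616 and 976 bp after THC. Tcirg1, a V-ATPase subunit of osteoclasts and lysosomes, had 2339 and 2277 bp after SR2 and 1009 and 1138 bp after THC. Zfp445, a zinc finger protein that maintains imprints, had 1221 and 1496 bp after SR2 and 355 and 584 bp after THC, the largest difference of the 8 in log2 terms. All 3 had less covered length in either THC library than in either SR2 library.

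The other 3 were Dact2, which binds Dishevelled in Wnt signalling, Rdm1, a nucleic acid-binding protein, and Sdcbp, the adaptor syntenin. Dact2 had 1500 and 1797 bp after SR2 and 693 and 787 bp after THC. Rdm1 had 1499 and 1687 bp after SR2 and 558 and 815 bp after THC. Sdcbp had 1877 and 2093 bp after SR2 and 806 and 1133 bp after THC. In strength, by −log10 q among the regions marked in all 4 libraries, Scarb1 stood at the 82.4th and 93.8th percentile after SR2 and the 78.8th and 97.6th after THC.

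Wider genes differed less. Mtmr4, a phosphatase of endosomal phosphoinositides, had 773 and 989 bp after SR2 and 1021 and 1323 bp after THC, a centred difference of 0.58 ± 0.12 (SE; limma adjusted p = 0.746). Rab34, a small GTPase of cilium formation, had 1162 and 1273 bp after SR2 and 1521 and 1489 bp after THC. Snrpb, a core protein of spliceosomal particles, had 1281 and 1305 bp after SR2 and 1460 and 1644 bp after THC. These 3 were wider in both THC libraries in bp as well as after centring.

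In the other 5 the groups were apart only after centring. Hk1, a hexokinase, had 1562, 1625, 1605 and 2383 bp in SR2 replicates 1 and 2 and THC replicates 1 and 2, and Rnf121, a ubiquitin ligase whose region is shared with Xntrpc and Xndc1, had 913, 1021, 979 and 1323 bp. Pip4k2a, a phosphoinositide kinase, had 1108, 1205, 1108 and 1433 bp. Kif11, the kinesin that separates spindle poles, had 1142, 1221, 1174 and 1404 bp. The chemokine gene Cxcl16, whose region is shared with Zmynd15, had 1248, 1401, 1282 and 1578 bp, and its direction turned to -1.13 when peaks of −log10 q below 5 were left out.

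**Figure D5:**
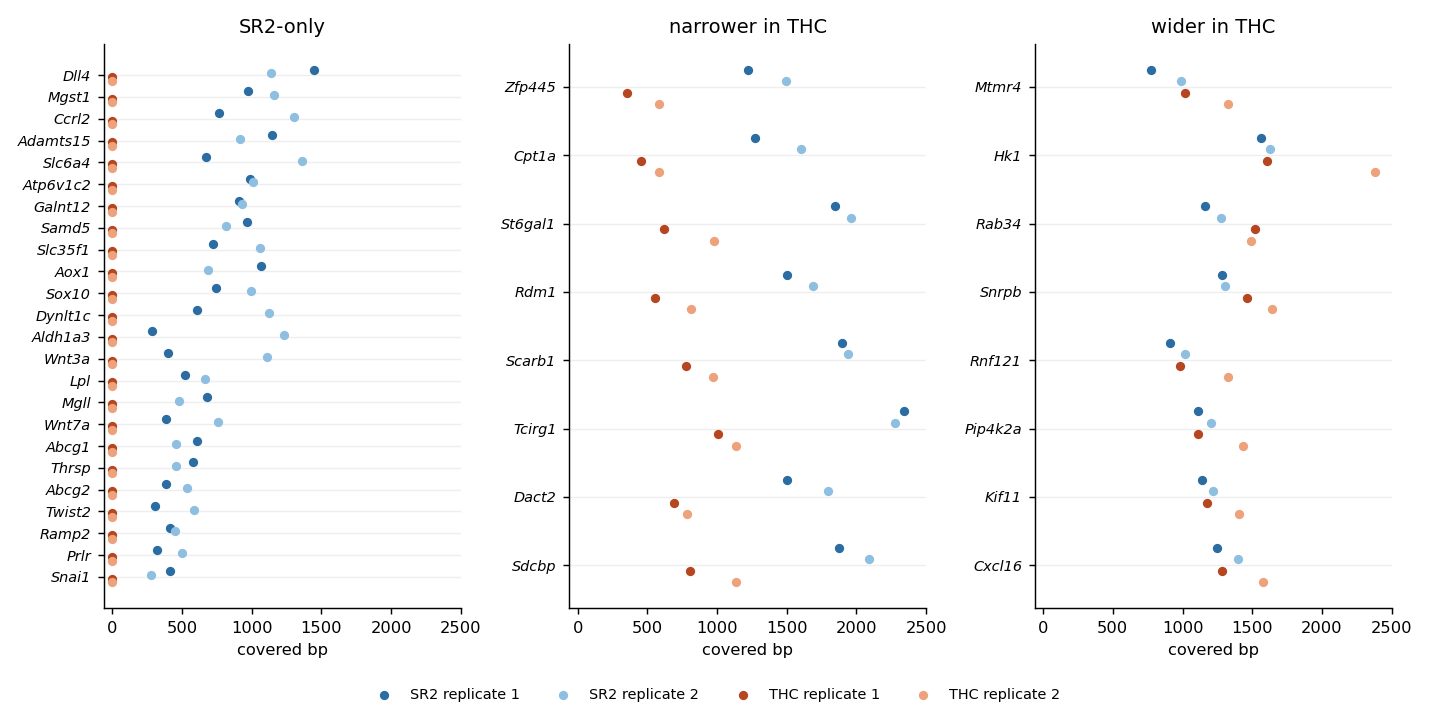
Covered bp in each of the 4 libraries for the 24 SR2-only genes named in the text (left), the 8 narrower (middle) and 8 wider genes (right), 1 point per library. SR2-only genes sit at 0 bp in both THC libraries, and the THC points of the middle panel lie left of both SR2 points in all 8 genes.

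Gene lists followed the background of the centred fit to different degrees. Over all 11405 genes tested the median difference was 0.01, with 18.7% of genes narrower and 21.2% wider in both THC libraries. The endocannabinoid list had a median of -0.58 over 16 genes, the hormone-sensing list -0.63 over 14, the basal list -0.53 over 12 and the list of epithelial-mesenchymal transition -0.50 over 18. These medians count genes with no peak in THC replicate 1 at 0 bp, and without that library they were 0.00, -0.10, -0.14 and 0.00, beside 0.02 over all genes. Ribosomal protein genes had a median of 0.07 over 34, with 14 wider and 4 narrower, and histone methylation genes 0.04 over 31, with 13 wider and 4 narrower. Kdm6b, an H3K27 demethylase, went the other way from most of that list, with 1161 and 1828 bp after SR2 and 679 and 704 bp after THC, a difference of -0.66 ± 0.20. The adjusted limma test called 0 genes in each of the 20 lists. At an unadjusted p of 0.05 it had 42 narrower and 3 wider among the 480 tested genes of any list or marker list. Among all 11405 genes tested it had 492 and 128. The narrower counts include genes with no peak in 1 or both THC libraries, entered there at 0 bp.

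Strength was compared as rank, the percentile of a region's highest −log10 q among the 10169 regions marked in all 4 libraries, so that lists of equal length were compared. The order of regions was much alike in all libraries. Spearman's rho across regions was 0.895 between the SR2 libraries and 0.907 between SR2 replicate 2 and THC replicate 2. It was 0.837 between the THC libraries, and 0.836 and 0.843 between THC replicate 1 and the SR2 libraries. The THC libraries were therefore no more alike in rank than a THC and an SR2 library of batch 2, and these values describe regions, which are not replicates.

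No region passed the adjusted limma test of rank, and the smallest adjusted p was 0.917. At an unadjusted p of 0.05, 250 regions were lower and 251 higher after THC, and without THC replicate 1 these were 242 and 264. Rank was lower in both THC libraries than in both SR2 libraries in 1639 regions (16.1%) and higher in 1693 (16.6%). The directions were present in nearly equal numbers.

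Among genes of higher rank after THC, Stk11ip, which binds the kinase LKB1, stood at the 23.4th and 35.2nd percentile after SR2 and the 74.0th and 78.6th after THC. The corepressor Ctbp1 stood at 41.2 and 42.0 after SR2 and 93.2 and 68.6 after THC, and the ciliary protein Tmem107 at 14.2 and 16.2 after SR2 and 51.9 and 56.3 after THC. The ribosomal protein gene Rps2 stood at 42.8 and 24.2 after SR2 and 85.2 and 59.1 after THC. Irak2, a kinase of interleukin-1 signalling, stood at 4.05 and 21.0 after SR2 and 76.6 and 23.6 after THC, so that most of its difference lay in THC replicate 1.

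Among genes of lower rank after THC, Kif13b, a kinesin, stood at the 80.3rd and 62.8th percentile after SR2 and the 5.65th and 50.9th after THC. Psrc1, a spindle protein, stood at 74.8 and 46.0 after SR2 and 22.1 and 15.0 after THC. Slc2a8, a glucose transporter, stood at 76.0 and 79.1 after SR2 and 32.5 and 41.7 after THC, and Dhodh, an enzyme of pyrimidine synthesis, at 69.1 and 83.0 after SR2 and 30.4 and 42.6 after THC. The claudin Cldn23 stood at 77.6 and 76.7 after SR2 and 42.5 and 34.9 after THC. Cacnb3, a calcium channel subunit, stood at 84.9 and 73.0 after SR2 and 26.9 and 54.3 after THC. Cpt1a, among the genes narrower after THC, stood at 23.5 and 17.7 after SR2 and 14.6 and 5.39 after THC. Ranked by covered bp instead, Slc2a8, Kif13b, Rps2 and Irak2 had the opposite direction.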

How the data were processed

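H3K4me3 was profiled by CUT&Tag, and the values used are peak lists called per library, since every deposited peak is named after 1 library. Per the submitters' processing notes the build was mm10 and the tools, with no roles given, included MACS3, Bowtie2 2.5.4 and cutadapt 5.2. Per the deposited lists, each peak has a score, a fold enrichment (a ratio to the caller's background) and −log10 p and −log10 q, all the authors' own values, used only within a list. Each pileup was recovered as the whole number that, with the authors' fold enrichment, came closest to their −log10 p. The −log10 p was matched within 0.005 for 100.0% of peaks. Total depth is unknown, so no counting interval is given.

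Peaks outside chromosomes 1 to 19 and X (21 to 37 per library) were left out. Overlapping peaks of the 4 libraries were merged, and covered bp per region and library computed. Genes took the region with the most covered bp within 1 kb of a RefSeq start (GRCm38.p6; 17273 of 21627 protein-coding genes), or of either gene end where no start was used. Breadth was tested with limma 3.58.1 (R 4.3.3) and Benjamini-Hochberg adjustment over all regions tested, on log2(bp + 200), centred, with a trend of variance on mean. Rank was tested with limma and the same adjustment, without centring or trend, over the regions marked in all 4 libraries. The fits used the 4 libraries without a block. The labels give the batch, so the numbers pair libraries; their deviations correlated at 0.210 for breadth and 0.0545 for rank. Scripts were tested on simulated data.

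Genes are named by rule: the 12 SR2-only and up to 12 THC-only genes with the most covered bp, and SR2-only and THC-only members of the gene lists. Among genes marked in all 4 libraries, it takes the 8 narrower and 8 wider of smallest p with groups apart. From these it also takes the 6 moving most in rank each way. It adds 14 fixed genes and the 5 broadest. A gene that the rule for rank names is not reported here. Others from the lists were picked after their values were seen. Members and lists were chosen with earlier results of these data known. Alternatives changed the peak threshold, list length, covered length or share required, merging, pseudocount, centring, filter, libraries fitted, block and ranked value.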

Additional observations from a re-analysis of the deposited data

How the results depend on the processing

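THC-only regions numbered 3 without peaks of −log10 q below 5, 38 at equal list length and 1 with at least 500 bp covered, and SR2-only regions numbered 213 at equal list length. The SR2-only count was 480 to 626 under the other changes of threshold, covered length or merging. Leaving out each library in turn gave 750 to 3014 SR2-only and 24 to 1050 THC-only regions, a covered length ratio of 0.637 to 0.872 and a mean peak length ratio of 0.802 to 0.990. Without THC replicate 1 these 2 ratios were 0.872 and 0.990.

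The breadth test by limma with adjustment called 197 narrower and 2 wider regions when regions marked in 1 library were tested too. Leaving out each library in turn gave 0 to 1134 narrower and 0 to 37 wider calls, the upper values without THC replicate 2, where THC replicate 1 stands alone and is assumed to vary like SR2. The other alternatives called 0 regions for breadth, and each alternative called 0 for rank. The unadjusted counts for breadth, 720 narrower and 130 wider, were 412 and 242 after quantile normalization, 1220 and 15 without centring, 1197 and 162 with regions marked in 1 library, 392 and 121 with those marked in all 4, 408 and 127 at equal list length, and 1132 and 409 with all 6 libraries fitted. Leaving out each library gave 148 to 2775 narrower and 18 to 1068 wider, and 94 to 562 lower and 91 to 597 higher in rank. Ranked by fold enrichment, 401 were lower and 346 higher, beside 250 and 251. With the replicate block, breadth and rank had 0 calls after adjustment, smallest adjusted p 0.489 and 0.872, and 1042 narrower and 126 wider regions at an unadjusted p of 0.05; the block changed no call.

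Of 543 gene values for breadth, 507 kept direction and side of the threshold, 35 passed it (12 with regions marked in 1 library tested too, 23 without THC replicate 2) and Cxcl16 reversed to -1.13 without peaks of −log10 q below 5. Of 95 for rank, 91 kept both, and ranked by covered bp Slc2a8 reversed to 13.0, Kif13b to 7.93, Rps2 to -10.8 and Irak2 to -0.0787. With 2 libraries per group and unknown depth, a missing peak means only that none was called.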
